A study of Mus musculus with 8 samples.

Results

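Bulk RNA-seq libraries of mouse lung endothelial cells (ECs) were examined for 10 genes known from lymphatic ECs, in pups reared in normoxia or hyperoxia. The 10 genes, out of 54532 in the deposited table, were chosen by name, as lymphatic endothelial markers outside the VEGF and chemokine families: Prox1, Foxc2, Lyve1, Stab1, Stab2, Pdpn, Thy1, Mmrn1, Reln and Nts. Earlier results of these data were known when the genes were chosen. All pups were wild type (WT), of the C57BL/6J strain per the study's methods. They were kept from postnatal day (P) 0 to P14 in air with 21% O2 (normoxia) or in 80% O2 (hyperoxia), an exposure used to model bronchopulmonary dysplasia, and lungs were harvested at P14. Pups born on the same day were divided at random among dams, and the dams were moved between the 2 atmospheres. Cells bound by CD45-coated beads, which are leukocytes, were removed from the lung suspension, and cells bound by CD31-coated beads were collected as ECs. Each group held 4 libraries. Nothing in the labels states whether the libraries came from separate animals, so p-values measure the spread between these libraries.

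Lymphatic vessels return fluid and cells from the tissue to the blood. Lymphatic ECs arise in the embryo mostly from venous ECs, once the homeobox factor PROX1 is switched on, and PROX1 is needed throughout life to keep their identity. The other genes mark steps of the same program: FOXC2 shapes the collecting vessels and their valves, LYVE1 binds hyaluronan, podoplanin (Pdpn) keeps lymph and blood apart through platelets, and multimerin 1 (Mmrn1), reelin (Reln) and neurotensin (Nts) are secreted. Few of these genes are restricted to lymphatic ECs. LYVE1, STAB1 and STAB2 are carried by sinusoidal ECs and the first 2 also by macrophages, podoplanin by alveolar type 1 (AT1) and mesothelial cells, and THY1 by fibroblasts, mural cells and T cells. In bulk libraries, a larger share of cells of one type and more RNA per cell cannot be told apart.

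Libraries held between 16098086 and 18300730 counts. The pan-endothelial markers Pecam1 (2902 against 2822 CPM) and Cdh5 (4121 against 4035 CPM) were abundant in both groups and did not pass the test. CPM is a count scaled to the normalized size of its library, so that libraries can be compared. Over 12 pan-endothelial markers the summed level was 17990 to 19000 CPM in normoxia and 18180 to 19150 CPM in hyperoxia. Of the 12 markers 5 rose and 3 fell, where 18.5% and 17.1% of all genes tested did so. Hyperoxia 3 stood between the groups on the first principal component (57.8% of the variance), at 20.3 against 40.2 to 42.9 in the other hyperoxia libraries and -43.6 to -28.5 in normoxia. In 5 of 8 libraries both Xist and the sum of 4 Y-linked genes exceeded 100 counts, so these held RNA of both sexes and thus of more than 1 pup. Normoxia 2 and hyperoxia 4 had 3 and 5 Xist counts, and hyperoxia 3 had 7 Y-linked counts. These libraries thus held RNA of almost only 1 sex, male in the first 2 and female in hyperoxia 3. The part of sex in the results was not tested.

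Promoter sequences of RefSeq (build GRCm38.p6) were found for 7 of the 10 genes, with 8 entries, and not for Lyve1, Foxc2 and Thy1. The 250 bases before the RefSeq start are shown for 6 genes that rose in hyperoxia, to show how unlike one another they are. The windows are chr1:190170828-190171077 (minus strand) for Prox1, chr6:60944067-60944316 (plus strand) for Mmrn1, chr5:22344706-22344955 (minus strand) for Reln, chr10:102490419-102490668 (minus strand) for Nts, chr14:31168642-31168891 (minus strand) for Stab1 and chr4:143299565-143299814 (minus strand) for Pdpn. The Prox1 window lies before the gene as the files give it, the Mmrn1 window lies inside the gene as listed, and the Nts window reaches into the listed gene. Capitals mark matches, on either strand, to the letters GGGCGG (a GC box), CCGGAA (an ETS core), AACAAT (a SOX core), TGANTCA (an AP-1 site) or TGACNNNGC (an antioxidant response element).
Prox1: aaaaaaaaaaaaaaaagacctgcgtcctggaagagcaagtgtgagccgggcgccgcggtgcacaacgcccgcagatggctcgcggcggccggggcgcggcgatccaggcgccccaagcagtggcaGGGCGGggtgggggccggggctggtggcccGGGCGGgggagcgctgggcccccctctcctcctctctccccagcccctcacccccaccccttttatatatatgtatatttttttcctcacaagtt
Mmrn1: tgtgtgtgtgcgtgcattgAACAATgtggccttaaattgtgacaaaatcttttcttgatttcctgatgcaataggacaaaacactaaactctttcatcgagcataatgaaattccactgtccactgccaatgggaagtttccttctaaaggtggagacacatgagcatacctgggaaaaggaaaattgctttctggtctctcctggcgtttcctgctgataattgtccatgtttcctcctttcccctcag
Reln: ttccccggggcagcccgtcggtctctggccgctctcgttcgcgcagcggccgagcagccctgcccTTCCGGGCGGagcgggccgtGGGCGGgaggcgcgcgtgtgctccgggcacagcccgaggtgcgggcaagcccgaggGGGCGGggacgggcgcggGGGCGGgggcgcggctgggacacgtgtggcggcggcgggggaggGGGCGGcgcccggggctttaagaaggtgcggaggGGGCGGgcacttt
Nts: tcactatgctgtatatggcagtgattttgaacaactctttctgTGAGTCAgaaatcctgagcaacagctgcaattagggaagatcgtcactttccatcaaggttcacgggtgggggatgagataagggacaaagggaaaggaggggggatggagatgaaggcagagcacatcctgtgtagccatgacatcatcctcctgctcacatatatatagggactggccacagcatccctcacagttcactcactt
Stab1: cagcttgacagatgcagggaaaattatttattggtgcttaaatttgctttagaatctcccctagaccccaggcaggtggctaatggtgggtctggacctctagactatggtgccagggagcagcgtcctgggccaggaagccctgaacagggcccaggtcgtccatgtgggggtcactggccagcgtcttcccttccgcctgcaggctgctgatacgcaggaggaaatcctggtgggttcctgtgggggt
Pdpn: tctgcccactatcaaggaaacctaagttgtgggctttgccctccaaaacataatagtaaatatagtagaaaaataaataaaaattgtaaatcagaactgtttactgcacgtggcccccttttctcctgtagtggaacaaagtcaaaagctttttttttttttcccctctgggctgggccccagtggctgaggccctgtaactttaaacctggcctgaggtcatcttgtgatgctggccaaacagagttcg
The Reln window was the richest in CG dinucleotides, with 37 against a median of 6 over 32851 promoters of the same length. It held 6 GC boxes and 1 ETS core, of which the first GC box and the ETS core overlapped. The Prox1 window held 20 CG dinucleotides and 2 GC boxes, and its other entry (chr1:190169516-190169765) held 11 and 1. The windows of Mmrn1, Nts, Pdpn and Stab1 held 3, 2, 2 and 5 CG dinucleotides. Mmrn1 had 1 SOX core, Nts had 1 AP-1 site, and neither the Stab1 nor the Pdpn window held any of the letters searched. Of all promoters, 32.7% held a GC box, 12% an ETS core, 9.42% a SOX core, 6.75% an AP-1 site and 10.2% an antioxidant response element. A match is a match of letters and was not tested as a binding site.

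In hyperoxia, 7 of the 10 genes rose, none fell, and 3 did not pass the test. The test was the quasi-likelihood test of edgeR over 15564 genes, and a gene passed at a Benjamini-Hochberg adjusted p under 0.05. Over all genes tested, 35.6% passed, 18.5% as higher and 17.1% as lower. The median log2 fold change of the 10 genes was 0.587, beside -0.004 over all genes tested. Groups did not overlap for Lyve1, Stab1, Pdpn and Nts, each with hyperoxia above normoxia, as for 17.8% of all genes tested. Pdpn and Nts changed by at least 2-fold and rose, which 5.62% of all genes did (6.98% in either direction). All 10 genes passed the filter on low counts. Nts passed it through hyperoxia, with 4 hyperoxia and 3 normoxia libraries at or above its limit of 0.566 CPM, there taken over the total counts before normalization. Pdpn is shared with other lung cells and Nts rests on few counts, and without these genes 5 of 8 genes rose, with a median of 0.556.

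**Figure D1:**
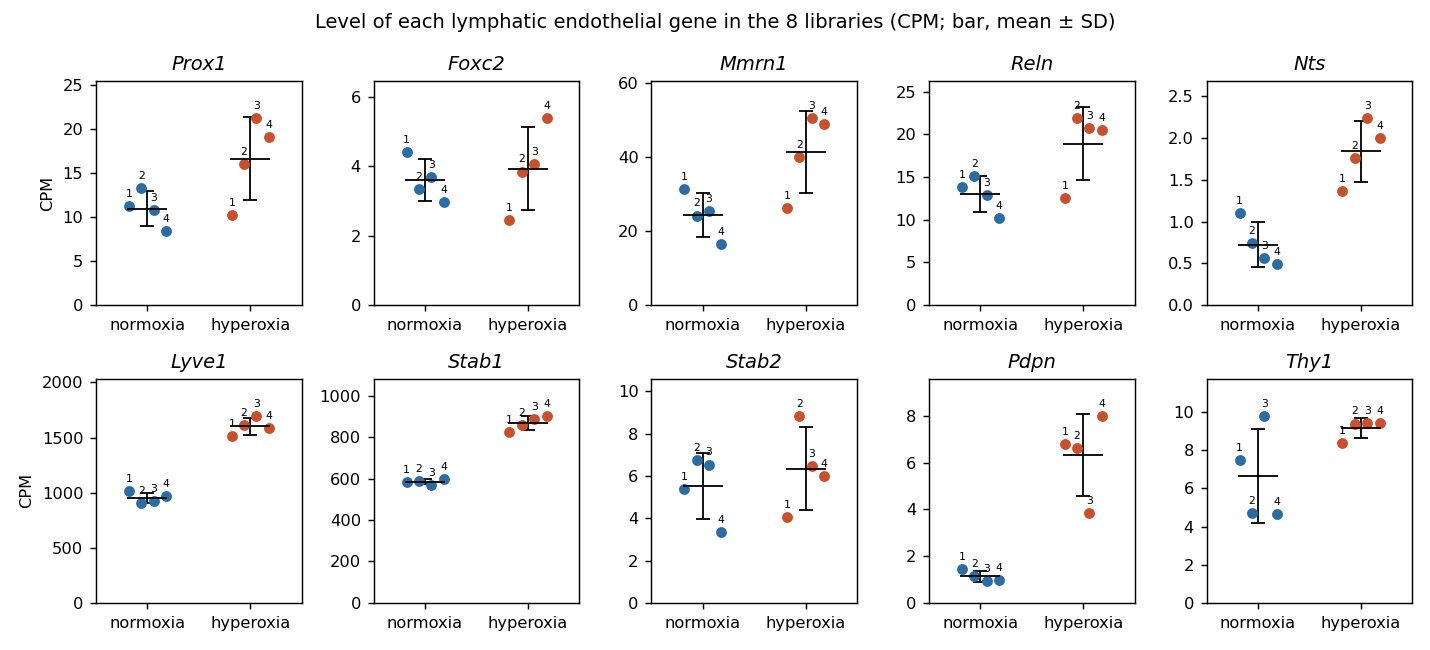
Each panel shows 1 gene, with CPM from 0 on the vertical axis and the 4 normoxia (blue) and 4 hyperoxia (orange) libraries numbered by replicate; bars are the mean ± SD. Lyve1, Stab1, Pdpn and Nts separate the groups, while hyperoxia 1 lies within the normoxia range for Prox1, Mmrn1 and Reln.

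Levels differed far more between the genes than between the groups. On the FPKM scale, which divides by gene length, the mean level in normoxia was 324 for Lyve1 and 56.4 for Stab1, followed by Mmrn1 (4.12), Thy1 (2.21), Foxc2 (1.31), Prox1 (1.29), Stab2 (0.625), Pdpn (0.621), Nts (0.576) and Reln (0.542). The highest mean was 597 times the lowest. Lyve1 and Stab1 did not overlap with each other or with any other gene, and Prox1 and all genes above it lay clear of the 4 lowest. Within each of these sets the libraries of neighbouring genes overlapped. In hyperoxia the order from Mmrn1 down was Mmrn1 (7.03), Pdpn (3.45), Thy1 (3.05), Prox1 (1.97), Nts (1.47), Foxc2 (1.44), Reln (0.793) and Stab2 (0.720). Pdpn had moved from the eighth to the fourth place of the 10. The levels of Lyve1 and Stab1 thus stood far above that of Prox1, the defining factor of lymphatic ECs, in both groups.

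**Figure D2:**
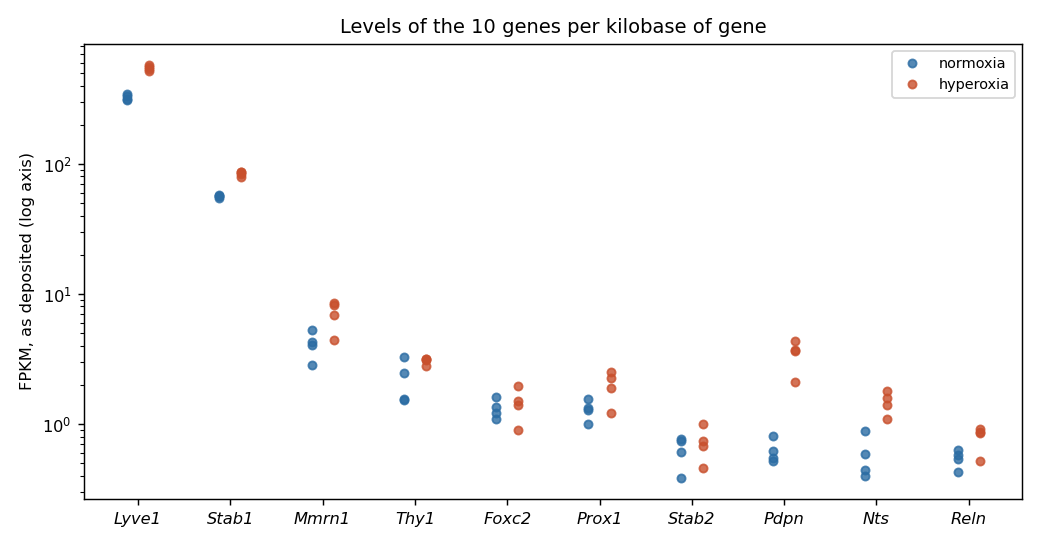
Deposited FPKM of the 10 genes on a log axis, ordered by the normoxia mean, with 1 point per library (blue normoxia, orange hyperoxia). Lyve1 and Stab1 stand apart from the rest, and Pdpn moves from 0.621 to 3.45.

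Among the transcription factors, Prox1 rose and Foxc2 did not pass the test. Prox1 (ENSMUSG00000010175, chr1:190118035-190170714, minus strand) was at 11.3, 13.3, 10.8 and 8.40 CPM in the normoxia libraries and at 10.3, 16.03, 21.2 and 19.0 CPM in the hyperoxia libraries. Hyperoxia 2 to 4 lay above every normoxia library, hyperoxia 1 lay inside the normoxia range, and the groups overlapped. The mean went from 10.9 ± 2.02 to 16.6 ± 4.73 CPM (SD, n = 4 each; log2 fold change 0.60, SE 0.209, edgeR adjusted p = 0.044). This call was close to the threshold. It was lost when normoxia 1, 3 or 4 or hyperoxia 2, 3 or 4 was left out, with edgeR adjusted p between 0.075 and 0.118 and log2 fold changes between 0.47 and 0.62. Without hyperoxia 1 the log2 fold change was 0.78 (adjusted p = 0.00322).

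Foxc2 (ENSMUSG00000046714, chr8:121116171-121118895, plus strand) stood at 4.41, 3.36, 3.69 and 2.98 CPM in normoxia and at 2.46, 3.85, 4.06 and 5.38 CPM in hyperoxia. Hyperoxia 1 was the lowest and hyperoxia 4 the highest of the 8 libraries. The means were 3.61 ± 0.606 and 3.94 ± 1.198 CPM (SD, n = 4 each; log2 fold change 0.13, SE 0.231, edgeR adjusted p = 0.703), and a difference was not detectable at this spread.

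Of the hyaluronan and scavenger receptors, Lyve1 and Stab1 rose and Stab2 did not pass the test. Lyve1 (ENSMUSG00000030787, chr7:110850607-110863239, minus strand), a hyaluronan receptor known from lymphatic ECs, was at 1014, 910.1, 920.7 and 968.8 CPM in normoxia and at 1512, 1615, 1695 and 1588 CPM in hyperoxia. All 4 hyperoxia libraries, hyperoxia 1 included, lay far above all 4 normoxia libraries. The mean went from 953.5 ± 48.0 to 1602 ± 75.7 CPM, or 1.68-fold (SD, n = 4 each; log2 fold change 0.75, SE 0.0529, edgeR adjusted p = 2.78e-06). The coefficient of variation was 5.03% in normoxia and 4.72% in hyperoxia.

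Stab1 (ENSMUSG00000042286, chr14:31139013-31168641, minus strand) encodes stabilin 1, which takes up modified lipoproteins and other ligands. It was at 585.1, 587.0, 569.4 and 598.1 CPM in normoxia and at 823.9, 860.1, 886.0 and 901.5 CPM in hyperoxia. The groups were again wide apart, with little spread inside either one. The mean went from 584.9 ± 11.8 to 867.9 ± 33.9 CPM, or 1.48-fold (SD, n = 4 each; log2 fold change 0.57, SE 0.0440, edgeR adjusted p = 5.33e-06). The exons of Nt5dc2, on the opposite strand, share 1.09% of the Stab1 exon bases. The ratio of Lyve1 to Stab1 counts was 1.55 to 1.73 in normoxia and 1.76 to 1.91 in hyperoxia, so Lyve1 gained on Stab1 in each hyperoxia library. This pair was chosen after the values were seen, and the ratio is given as a description.

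Stab2 (ENSMUSG00000035459, chr10:86841198-87008025, minus strand), the stabilin that clears hyaluronan from the blood, was low and uneven. It was at 5.39, 6.77, 6.54 and 3.37 CPM in normoxia and at 4.05, 8.84, 6.47 and 5.99 CPM in hyperoxia. The groups overlapped widely, with means of 5.52 ± 1.56 and 6.34 ± 1.97 CPM (SD, n = 4 each; log2 fold change 0.20, SE 0.259, edgeR adjusted p = 0.588).

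Macrophages also express Lyve1 and Stab1, and their markers are given for this reason. Of 10 macrophage markers tested of 11, 1 rose and 1 fell, against 18.5% and 17.1% of all genes. Marco, a scavenger receptor, rose from 1.58 to 4.73 CPM (log2 fold change 1.58, edgeR adjusted p = 0.0344), a call lost without normoxia 1, 2 or 4 or hyperoxia 1 or 4 (adjusted p between 0.0787 and 0.0928). Cd68, a lysosomal protein, fell from 40.8 to 25.7 CPM (log2 fold change -0.67, edgeR adjusted p = 0.000502). Ptprc, the gene of CD45, was at 38.4 against 38.3 CPM, and Csf1r, the receptor of macrophage growth factor, at 40.2 against 36.1 CPM. The summed level of the markers was 142.2 to 277.9 CPM in normoxia and 148.5 to 250.9 CPM in hyperoxia. Lyve1 and Stab1 were lowest in normoxia 2 and normoxia 3, and the macrophage sum was lowest in normoxia 2 and highest in normoxia 3. The part of these cells, or of ECs that are not lymphatic, in the Lyve1 and Stab1 results was not tested.

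Among the surface glycoproteins, Pdpn rose by the widest margin of the 10 genes. Pdpn (ENSMUSG00000028583, chr4:143267431-143299564, minus strand) was at 1.47, 1.14, 0.951 and 0.994 CPM in normoxia and at 6.80, 6.63, 3.84 and 7.99 CPM in hyperoxia. Every hyperoxia library lay above every normoxia library, and hyperoxia 3 was the lowest of its group. The mean went from 1.14 ± 0.235 to 6.31 ± 1.76 CPM, or 5.54-fold (SD, n = 4 each; log2 fold change 2.47, SE 0.255, edgeR adjusted p = 4.03e-05). These levels rest on 17 to 24 counts per normoxia library and 67 to 144 counts per hyperoxia library.

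Markers of other cells that carry podoplanin moved with Pdpn. Of 10 AT1 markers, 9 rose and none fell, against 18.5% and 17.1% of all genes tested. The median log2 fold change of the AT1 markers was 2.81, beside -0.004 over all genes tested. Ager, a receptor abundant on AT1 cells, went from 21.7 to 29.6 CPM in the normoxia libraries to 196.9, 185.9, 60.5 and 170.1 CPM in the hyperoxia libraries, lowest in hyperoxia 3 as was Pdpn. Of the 10 AT1 markers, 9 were lowest of their group in hyperoxia 3, against 27.8% of all genes tested. The other AT1 marker, Clic5, the most abundant of the list, was at 700.0 and 675.1 CPM and did not pass. The summed AT1 level, most of it Clic5, was 770.0 to 813.8 CPM in normoxia and 878.3 to 1256 CPM in hyperoxia. Of 7 mesothelial markers, 4 were tested and 2 passed as higher, against 18.5% of all genes tested. Both passed the filter on low counts through hyperoxia. These were Krt19, a keratin of epithelia (0.899 to 7.24 CPM, log2 fold change 3.01, edgeR adjusted p = 0.000218), and Msln (0.266 to 1.47 CPM, log2 fold change 2.47, edgeR adjusted p = 0.00838), with 9 to 23 and 0 to 10 counts per normoxia library. Their calls are no support for the list. The mesothelial sum was 2.93 to 7.35 CPM in normoxia and 8.07 to 17.7 CPM in hyperoxia, while the defining markers Upk3b, Wt1 and Lrrn4 were near 0 in both groups. The part of these cells in the Pdpn result was not tested. Against Prox1, the ratio of Pdpn counts was 0.0855 to 0.130 in normoxia and 0.181 to 0.661 in hyperoxia, given as a description of a pair chosen after the values were seen.

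All 10 markers of alveolar type 2 cells, which make surfactant, also rose, where 18.5% of all genes tested did so. Their median log2 fold change was 2.8. Their sum was 250.7 to 352.7 CPM in normoxia and 783.4 to 2332 CPM in hyperoxia, lowest in hyperoxia 3. Sftpc, a surfactant protein, went from 106.0 to 1121 CPM (log2 fold change 3.40), and Abca3, its lipid transporter, from 110.2 to 144.6 CPM (log2 fold change 0.39). Of the 10 lymphatic genes, 5 were highest of their group in hyperoxia 3 (Prox1, Lyve1, Mmrn1, Nts and Thy1), 3 in hyperoxia 4 (Stab1, Foxc2 and Pdpn) and 2 in hyperoxia 2 (Stab2 and Reln). For Thy1, hyperoxia 2, 3 and 4 were almost level, at 9.40, 9.45 and 9.43 CPM. The share of all genes highest in each library was not counted.

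Thy1 (ENSMUSG00000032011, chr9:44043384-44048579, plus strand), a glycoprotein anchored in the outer membrane, did not pass the test. It was at 7.47, 4.72, 9.79 and 4.64 CPM in normoxia and at 8.39, 9.40, 9.45 and 9.43 CPM in hyperoxia. The hyperoxia libraries were close together, the normoxia libraries were spread, and normoxia 3 was the highest of all 8. The means were 6.66 ± 2.47 and 9.17 ± 0.516 CPM (SD, n = 4 each; log2 fold change 0.46, SE 0.218, edgeR adjusted p = 0.125). Without normoxia 3 Thy1 passed, with a log2 fold change of 0.71 and an edgeR adjusted p of 0.0122. The summed level of 9 T cell markers was also highest in normoxia 3, at 34.4 CPM, and ranked the normoxia libraries in the same order as Thy1 (22.4, 20.3, 34.4 and 19.2 CPM). In hyperoxia it did not, since the T cell sum was 24.9, 19.9, 19.4 and 14.0 CPM, highest in hyperoxia 1, where Thy1 was lowest. The macrophage sum was likewise highest in normoxia 3, at 277.9 CPM.

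None of the 9 T cell markers passed the test in either direction, where 35.6% of all genes tested passed. Lck was at 6.16 against 4.91 CPM and Cd2 at 4.81 against 3.92 CPM. Of fibroblast markers, 9 of 10 were tested and 5 rose, where 18.5% of all genes tested rose. Among these 5, Dcn passed the filter on low counts through hyperoxia, so its call is no support for the list. It had 3 to 11 counts per normoxia library and 11 to 32 per hyperoxia library. Col3a1, a fibrillar collagen, went from 78.7 to 139.6 CPM (log2 fold change 0.83, edgeR adjusted p = 0.0247). This call was lost without normoxia 2 or 4 or hyperoxia 2 or 4 (adjusted p between 0.0556 and 0.0739). Mfap4 was at 94.6 and 158.3 CPM (edgeR adjusted p = 0.0999). Without normoxia 1 or hyperoxia 3, Mfap4 passed as higher (edgeR adjusted p between 0.0087 and 0.0456). The fibroblast sum was 186.4 to 374.7 CPM in normoxia and 251.5 to 658.2 CPM in hyperoxia, lowest in hyperoxia 3. Of 10 mural markers 7 rose and none fell, against 18.5% and 17.1% of all genes tested. Rgs5, a pericyte gene, went from 28.7 to 61.8 CPM. The mural sum went from 50.1 to 88.2 CPM in normoxia to 106.8 to 188.2 CPM in hyperoxia. Pdgfrb, a receptor of mural cells, went from 9.72 to 19.9 CPM (log2 fold change 1.04, edgeR adjusted p = 0.0386), a call lost without normoxia 2, 3 or 4 or hyperoxia 1, 2 or 4 (adjusted p between 0.0514 and 0.123). The part of these cells in the Thy1 values was not tested.

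**Figure D3:**
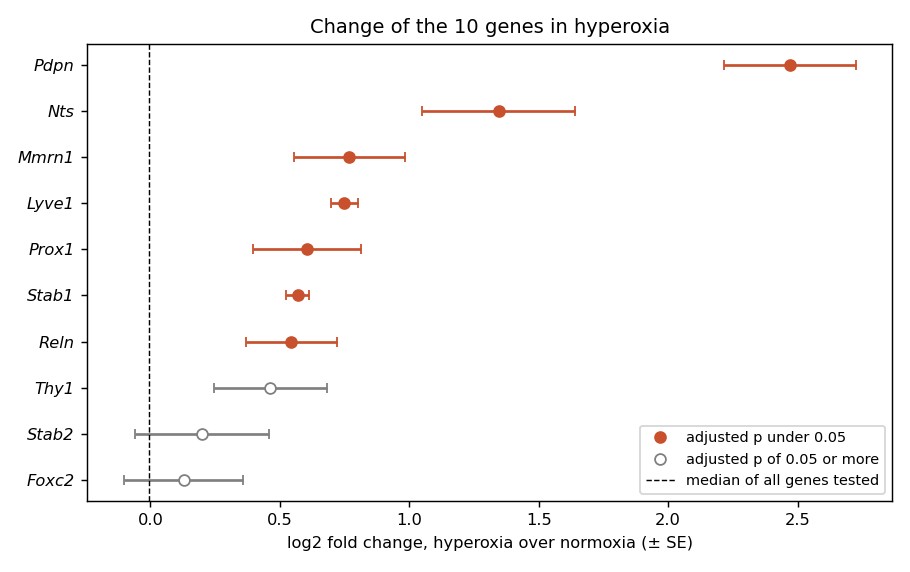
Log2 fold change of each gene, hyperoxia over normoxia, with its SE on the horizontal axis; filled orange points passed the test and open grey points did not. All 10 estimates lie above the median of all genes tested (dashed line, -0.004), from 0.13 for Foxc2 to 2.47 for Pdpn.

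Counts rose for all 3 genes of secreted proteins. Nts passed the filter on low counts through hyperoxia, so its call is no support for this set. Mmrn1 (ENSMUSG00000054641, chr6:60924976-60989378, plus strand), an extracellular glycoprotein also stored in platelets, was at 31.4, 24.2, 25.3 and 16.6 CPM in normoxia and at 26.3, 40.2, 50.5 and 48.9 CPM in hyperoxia. Hyperoxia 1 lay between the normoxia libraries, and hyperoxia 2 to 4 lay above all of them. Mean Mmrn1 went from 24.4 ± 6.04 to 41.5 ± 11.1 CPM, or 1.70-fold (SD, n = 4 each; log2 fold change 0.77, SE 0.215, edgeR adjusted p = 0.0174). This call was kept when any single library was left out, with an edgeR adjusted p of at most 0.0471.

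Reln (ENSMUSG00000042453, chr5:21884454-22344702, minus strand) encodes reelin, a matrix protein known from neuronal migration that lymphatic ECs of collecting vessels also secrete. It was at 13.8, 15.1, 12.9 and 10.2 CPM in normoxia and at 12.5, 21.9, 20.8 and 20.5 CPM in hyperoxia. Hyperoxia 1 again lay inside the normoxia range, and the other hyperoxia libraries lay close together above it. Mean Reln went from 13.0 ± 2.09 to 18.9 ± 4.31 CPM (SD, n = 4 each; log2 fold change 0.54, SE 0.176, edgeR adjusted p = 0.0339). The call was lost without normoxia 1, 3 or 4 or hyperoxia 2, 3 or 4 (edgeR adjusted p between 0.0522 and 0.0961, log2 fold changes between 0.44 and 0.57). Without hyperoxia 1 the log2 fold change was 0.70 (adjusted p = 0.00177).

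Nts (ENSMUSG00000019890, chr10:102481756-102490486, minus strand), a small peptide hormone, was the rarest of the 10 genes by count, with 9 to 18 counts per normoxia library and 24 to 39 per hyperoxia library. It was at 1.10, 0.740, 0.559 and 0.497 CPM in normoxia and at 1.37, 1.76, 2.23 and 1.997 CPM in hyperoxia. The groups did not overlap, although normoxia 1 and hyperoxia 1 were close. Mean Nts went from 0.725 ± 0.272 to 1.84 ± 0.368 CPM, or 2.54-fold (SD, n = 4 each; log2 fold change 1.34, SE 0.295, edgeR adjusted p = 0.00481).

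One library recurred through these values. In hyperoxia 1, 9 of the 10 genes were at the lowest level of their group, all but Pdpn, whereas hyperoxia 1 was the lowest for 28.3% of all genes tested. The same held for 19 of the 39 other lymphatic genes and 7 of the 12 pan-endothelial markers, so it was not particular to the 10 genes. It held for 0 of the 10 AT1 markers. Relative to the normoxia mean, hyperoxia 1 stood at a log2 difference of -0.09 for Prox1, -0.06 for Reln and 0.11 for Mmrn1. Hyperoxia 2, 3 and 4 stood at 0.55, 0.95 and 0.80 for Prox1, at 0.75, 0.68 and 0.66 for Reln and at 0.72, 1.05 and 1.0 for Mmrn1. Lyve1 and Stab1, in contrast, were above the normoxia mean in all 4 hyperoxia libraries, by 0.66 to 0.83 and by 0.49 to 0.62. Only for Lyve1, Stab1, Pdpn and Nts did hyperoxia 1 exceed every normoxia library. In normoxia, library 4 was the lowest for 7 of the 10 genes (Prox1, Foxc2, Mmrn1, Reln, Nts, Stab2 and Thy1), against 21.2% of all genes.

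**Figure D4:**
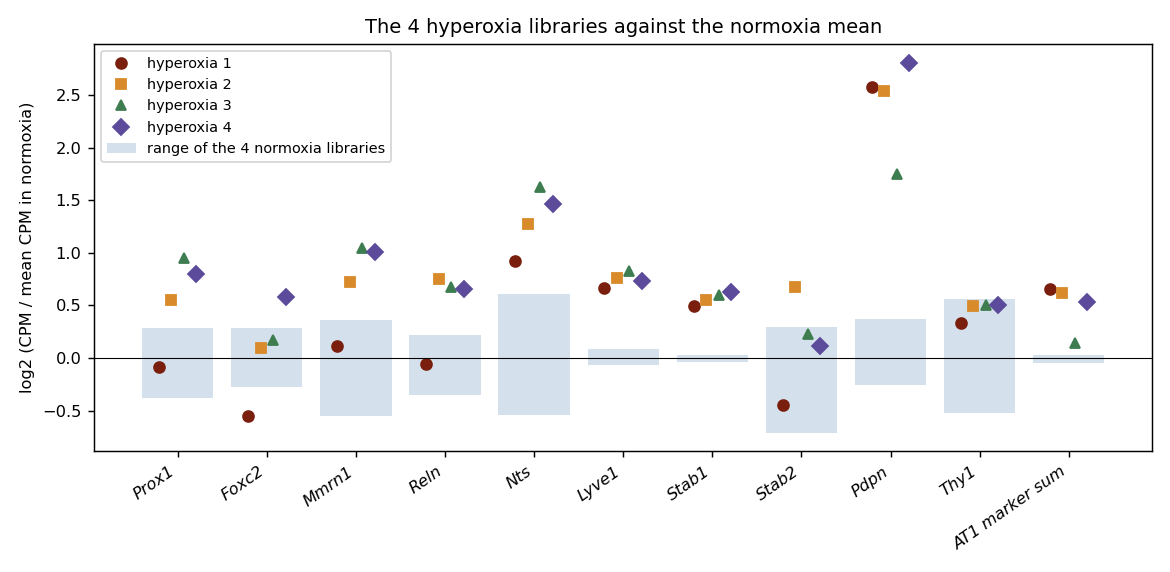
Log2 of the level in each hyperoxia library over the normoxia mean (vertical axis) for the 10 genes and the summed AT1 markers, with shaded bars for the range of the 4 normoxia libraries. Hyperoxia 1 (dark red circles) sits near 0 for Prox1, Mmrn1 and Reln, and hyperoxia 3 (green triangles) is the lowest for Pdpn and the AT1 sum. Most of the AT1 sum is Clic5, which did not pass the test.

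Counts of Prox1, Mmrn1 and Reln were also set against each other within each library, as a description of pairs chosen after the values were seen. The ratio of Mmrn1 to Prox1 was 2.78, 1.82, 2.35 and 1.98 in normoxia and 2.56, 2.51, 2.38 and 2.57 in hyperoxia. The ratio of Reln to Prox1 ran from 1.13 to 1.23 in normoxia and from 0.981 to 1.36 in hyperoxia, so these genes kept similar proportions in hyperoxia 1 as in the other libraries. The ratio of Lyve1 to Prox1 was less even, at 68.4 to 115 in normoxia and at 147, 101, 80.0 and 83.4 in hyperoxia, highest in hyperoxia 1.

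Other genes known from lymphatic ECs moved in both directions. Their mean levels in normoxia differed widely, with Ccbe1 at 3.18, Efnb2 at 1329 and Calcrl at 2483 CPM, beside 10.9 CPM for Prox1. The part of lymphatic ECs in these values was not tested. Of 39 other lymphatic genes 38 were tested, of which 13 (34.2%) rose and 9 (23.7%) fell, against 18.5% and 17.1% of all genes, with a median log2 fold change of 0.207. The count of genes that rose was 8 without normoxia 4 and 8 without hyperoxia 2. The gene of a chemokine, Ccl21a, is counted in this list but has near-identical copies in the genome, so its value is uncertain.

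Of 8 other transcription factors of lymphatic ECs, 1 rose and 2 fell (12.5% and 25%, against 18.5% and 17.1% of all genes). Nr2f2, the venous factor that acts with PROX1, rose from 28.3 to 36.7 CPM (log2 fold change 0.37, edgeR adjusted p = 0.0267), a call lost without normoxia 1, 3 or 4 or hyperoxia 2 or 3 (adjusted p between 0.0518 and 0.0681). Gata2, a regulator of lymphatic valves, fell from 482.6 to 359.9 CPM (log2 fold change -0.42, edgeR adjusted p = 0.000873), and Hhex, a homeobox factor of ECs, from 68.8 to 45.9 CPM (log2 fold change -0.58, edgeR adjusted p = 7.15e-05). Sox18, which turns on Prox1 in the embryo, was at 181.9 against 183.8 CPM (edgeR adjusted p = 0.903), and Nfatc1 at 104.9 against 106.7 CPM (adjusted p = 0.844).

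Of 10 growth signals of lymphatic vessels, 9 were tested, 4 rose and 1 fell (18.5% and 17.1% of all genes). Ccbe1, which helps to activate VEGF-C, rose from 3.18 to 9.63 CPM (log2 fold change 1.60, edgeR adjusted p = 1.06e-05). Nrp2, a co-receptor of VEGF-C, rose from 53.2 to 91.1 CPM (log2 fold change 0.78, edgeR adjusted p = 7.63e-05). Flt4, the VEGF-C receptor, went from 289.2 to 325.8 CPM (log2 fold change 0.17, edgeR adjusted p = 0.0433), a call lost without normoxia 1 or 3 or hyperoxia 2, 3 or 4 (adjusted p between 0.0563 and 0.115). Svep1, a matrix protein needed for lymphatic growth, went from 2.72 to 5.84 CPM (log2 fold change 1.10, edgeR adjusted p = 0.0357), a call lost without normoxia 2, 3 or 4 or hyperoxia 1, 2 or 4 (adjusted p between 0.0583 and 0.111). Calcrl, the adrenomedullin receptor, fell from 2483 to 1608 CPM (log2 fold change -0.63, edgeR adjusted p = 2.34e-05). Its partner Ramp2 was at 746.6 and 690.4 CPM (adjusted p = 0.139) and passed, as lower, only without normoxia 2 (adjusted p = 0.0446).

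Of 13 valve and vessel genes, 6 rose and 5 fell (18.5% and 17.1% of all genes). Celsr1, a planar polarity cadherin, rose from 6.92 to 17.6 CPM (log2 fold change 1.35, edgeR adjusted p = 0.00014), and the flow-sensing channel Piezo1 from 412.1 to 520.3 CPM (log2 fold change 0.34, edgeR adjusted p = 0.00508). Those that fell included the gap junction gene Gja4 (log2 fold change -0.77), the cadherin Fat4 (-0.78), the polarity gene Vangl2 (-0.46) and the ligand Efnb2 (-0.46). The edgeR adjusted p-values of these genes ran from 2.23e-06 for Gja4 to 0.00189 for Efnb2. Ephb4, the receptor of Efnb2, was at 419.0 and 373.6 CPM (adjusted p = 0.0867) and passed, as lower, only without hyperoxia 3 (adjusted p = 0.0355).

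Of 8 further lymphatic markers, 2 rose and 1 fell (18.5% and 17.1% of all genes). Ackr4, a scavenger of chemokines, fell from 16.2 to 5.99 CPM (log2 fold change -1.44, edgeR adjusted p = 1e-05). Ackr2, another chemokine scavenger, went from 89.4 to 104.2 CPM (log2 fold change 0.22, edgeR adjusted p = 0.0237), a call lost without normoxia 4 or hyperoxia 2 or 3 (adjusted p between 0.0569 and 0.0697). Sema3d, a guidance protein, went from 2.66 to 4.84 CPM (log2 fold change 0.87, edgeR adjusted p = 0.0294), a call lost without normoxia 2 or 4 or hyperoxia 2, 3 or 4 (adjusted p between 0.0513 and 0.087). Fgl2 was at 48.7 and 51.4 CPM and Pard6g at 70.4 and 74.4 CPM, and neither passed.

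Genes that make, break down or bind hyaluronan, the ligand of LYVE1 and STAB2, also moved both ways. Of 11 genes 10 were tested, 4 rose and 3 fell, against 18.5% and 17.1% of all genes tested. The median log2 fold change of those tested was 0.29, beside -0.004 over all genes tested. The synthase Has2 rose from 19.7 to 44.5 CPM (log2 fold change 1.17, edgeR adjusted p = 0.000215), and versican (Vcan), a proteoglycan that binds hyaluronan, from 6.15 to 14.4 CPM (log2 fold change 1.23, edgeR adjusted p = 0.000115). The hyaluronidase Hyal1 rose from 15.5 to 25.2 CPM (log2 fold change 0.70, edgeR adjusted p = 5.53e-05). Tmem2, a cell surface hyaluronidase, fell from 774.1 to 578.5 CPM (log2 fold change -0.42, edgeR adjusted p = 0.00454), and Hyal2 from 174.9 to 150.3 CPM (log2 fold change -0.22, edgeR adjusted p = 0.00493). Cemip rose (log2 fold change 0.70, edgeR adjusted p = 0.0392) and the synthase Has3 fell (log2 fold change -0.58, edgeR adjusted p = 0.0257). The Cemip call was lost without normoxia 1, 3 or 4 or hyperoxia 1, 2 or 4 (adjusted p between 0.0793 and 0.114) and that of Has3 without normoxia 2 or 4 or hyperoxia 1 or 2 (adjusted p between 0.0585 and 0.0753). Cd44, the other main hyaluronan receptor, was at 63.8 and 59.4 CPM (adjusted p = 0.457).

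Receptors for the secreted genes and for podoplanin were followed as partners. Of 8 genes 5 were tested, 4 rose and none fell, where 18.5% and 17.1% of all genes tested did so. The reelin receptors Vldlr (7.27 to 13.4 CPM, log2 fold change 0.88, edgeR adjusted p = 0.0021) and Lrp8 (0.345 to 1.02 CPM, log2 fold change 1.55, edgeR adjusted p = 0.0112) rose. Lrp8 passed the filter on low counts through hyperoxia, with 2 to 10 counts per normoxia library and 14 to 23 per hyperoxia library, so its call is no support for the list. Sort1, a sorting receptor that binds neurotensin, rose from 78.7 to 111.1 CPM (log2 fold change 0.50, edgeR adjusted p = 0.0052), and the integrin gene Itgb3 from 12.6 to 22.6 CPM (log2 fold change 0.85, edgeR adjusted p = 4.91e-05). The neurotensin receptor Ntsr1 had no count in any library, and Ntsr2 and the reelin adaptor Dab1 were too low to test. Clec1b, the platelet receptor of podoplanin, was at 31.8 and 33.3 CPM (adjusted p = 0.76).

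The 10 fold changes were recomputed under 16 alternatives, of which 8 left out 1 library each. Lyve1, Stab1, Mmrn1, Pdpn and Nts passed in all 16. Prox1 passed in 6 of the 16 and Reln in 8, with log2 fold changes between 0.47 and 0.78 and between 0.44 and 0.70. Thy1 passed in 1, and Foxc2 and Stab2 in none.

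**Figure D5:**
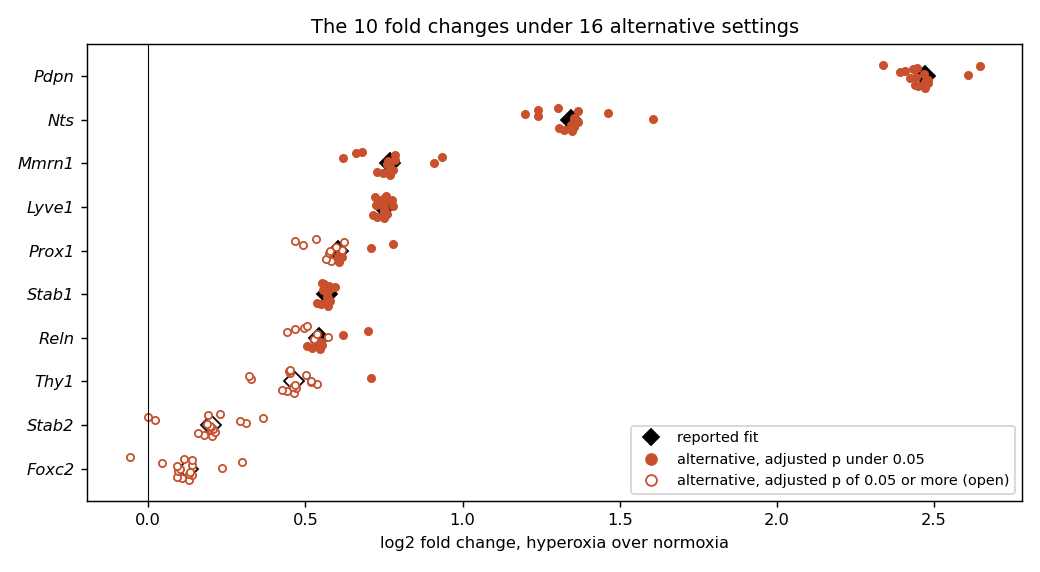
Log2 fold change of each gene in the reported fit (black diamonds, open where the test was not passed) and under the 16 alternatives (circles, filled where the adjusted p was under 0.05). Prox1 and Reln have both filled and open circles, while Lyve1, Stab1, Mmrn1, Nts and Pdpn have filled ones throughout.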

How the data were processed

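The libraries were paired-end bulk RNA-seq of lung ECs. Per the labels, RNA was purified with an RNeasy kit and libraries were made with a SMARTER kit, whereas the methods name TRIzol for RNA of such cells. The authors aligned reads to mm10 with HISAT2 2.0.5 and counted them with featureCounts 1.5.0-p3, as named in the submitters' processing notes; the use of strand and of reads matching several genes is not given in the sources used here. They deposited whole-number counts per gene, the values tested here, and FPKM. The deposited FPKM equalled count over gene length and library total times a constant of 0.974 to 1.01 per library, and was used only to compare levels between genes. Without strand information, reads of Prox1, Stab1, Stab2 and Reln cannot be told apart from those of opposite-strand genes where exons overlap (1.04 to 1.61% of exon bases).

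Differences were tested on the counts in R 4.3.3 by edgeR 4.0.16 (glmQLFTest, its quasi-likelihood test; TMM factors, filterByExpr, group as sole term) over 15564 of 54532 genes (24250 had no count), adjusted by the Benjamini-Hochberg method. A fold threshold of 2, which the study's legends pair with an unadjusted p, was also counted, here with the adjusted p. The fit was tested on simulated data for 15564 genes: 176 of 200 changed genes were recovered, each in the direction simulated, and 13 genes left unchanged also passed. The simulated log2 changes were of 1 or 2 in either direction, so the recovery of smaller changes was not tested. Totals were 16098086 to 18300730, and pairs of libraries within a group were further apart than sampling of reads would give (chi-square per degree of freedom 4.65 to 16.1), so none was counted as a repeat. Alternatives were RLE, upper-quartile or pan-endothelial scaling, no filter, a filter of 1 CPM in 4 libraries, DESeq2 1.42.0, limma-voom (limma 3.58.1), the replicate number as a block and leaving out each library. Summaries used Python 3.11.15. The members and gene lists were chosen with earlier results of these data known. Of each other list, the 3 most abundant genes and the 2 with the largest change past the test were named. Of each marker list 2 genes were named. Nr2f2, Nrp2, Gja4, Fat4, Vangl2, Has3, Hyal1, Cemip, Cd68, Marco, Msln, Dcn, the untested genes and Ccl21a were named after their values were seen. A gene that the rule names is not reported here.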

Additional observations from a re-analysis of the deposited data

Results flagged for a closer look

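In each group of 4 libraries, the gap between the most extreme library and its neighbour was compared with the range of the group, and 2 of 36 groups exceeded Dixon's 95% critical value, where chance gives about 1.8. Thy1 was at 8.39 CPM in hyperoxia 1, below the other hyperoxia libraries at 9.40 to 9.45 CPM, with a gap of 0.958 of the range. Reln was at 12.5 CPM in hyperoxia 1, below the other 3 at 20.5 to 21.9 CPM, with a gap of 0.857 of the range.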

How the results depend on the processing

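The count of genes that rose was 5 to 7 of the 10 over the 16 alternatives, none fell in any, and 2 passed the 2-fold threshold in each. It was 7 without normoxia 2 or hyperoxia 1, 6 without normoxia 3 and 5 without normoxia 1 or 4 or hyperoxia 2, 3 or 4. Prox1 lost its call with upper-quartile factors (edgeR adjusted p = 0.0541), pan-endothelial scaling (0.0551) and limma-voom (0.0707), and Reln with limma-voom (0.0513). The cause was not tested. The count of other lymphatic genes that rose ran from 8 to 13 when 1 library was left out, and 13 rose with all 8 libraries.

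With the replicate number as a block, 5 of the 10 genes rose, Prox1 (adjusted p = 0.0715) and Reln (0.0504) were lost, and 4792 genes passed in all, against 5535 without the block. The deviations of same-numbered libraries correlated weakly, at 0.119, 0.0361, -0.125 and -0.14 for numbers 1 to 4. Libraries of unlike number had correlations from -0.247 to 0.279. With 4 libraries per group these values cannot tell whether the numbers pair the samples.

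Estimates that changed sign were small and did not pass the test in either direction. Leaving out single libraries gave log2 fold changes of -0.059 to 0.30 for Foxc2, -0.0015 to 0.36 for Stab2, -0.043 to 0.10 for Sox18, -0.0204 to 0.0901 for Nfatc1, -0.0395 to 0.20 for Fgl2, -0.0325 to 0.22 for Clec1b, -0.34 to 0.19 for Csf1r and -0.26 to 0.30 for Ptprc. Sox18 was at -0.0055 with upper-quartile factors and -0.019 with pan-endothelial scaling, and Nfatc1 at -0.0081 with the latter. Ptprc was at 0.0059 with no filter, 0.0370 with limma-voom and 0.041 with the replicate block. Of the remaining named genes outside the 10, Dcn aside, 62 values under an alternative lost a call and 7 gained one. Nts and Pdpn rest on few counts in normoxia.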
